A study of Mus musculus with 12 samples.

Results

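Nrep, Cadm3, Serpina3b, Nell1 and Spock1 are 5 of the 23735 gene models in the authors' deposited expression tables. They were chosen by their FPKM falls in hair follicle stem cells without Foxc1, against control cells, both in anagen and in second telogen, so these falls describe the choice and are given without a test. Each of the 5 symbols stands on 1 row of the tables. The encoded proteins differ in kind. NREP (also called P311) is a small intracellular protein linked to TGF-beta translation and wound myofibroblasts, CADM3 is a membrane adhesion molecule of the nectin-like family, SERPINA3B is a secreted serine protease inhibitor, NELL1 is a secreted glycoprotein with von Willebrand factor C domains, and SPOCK1 (testican-1) is an extracellular proteoglycan. Of these, Nrep is therefore neither a secreted nor an adhesion gene.

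FOXC1 is a forkhead transcription factor known for keeping hair follicle stem cells quiescent. These cells alternate between growth of the follicle, anagen, and rest, telogen. They sit in the bulge, where they hold to one another, to their matrix and to the club hair of the previous cycle. Adhesion molecules are among the proteins through which bulge cells keep such contacts.

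The cells were sorted from the dorsal skin of single mice and their mRNA was sequenced in 12 libraries, in 7 groups. All groups with Sox9CreER had received tamoxifen, which sends the Cre recombinase to the nucleus and also activates a YFP reporter. The anagen control was 2 FOXC1-Sox9CreER-heterozygous males and the anagen iKO was 2 FOXC1-Sox9CreER-iKO males, all at postnatal day 30 and of a Black Swiss and C57BL/6 mix. The second telogen control was 1 WT male of postnatal day 42 and 1 WT female of day 46, and the telogen cKO was 1 FOXC1-K14Cre-cKO male and 1 female of the same days, all Black Swiss. The telogen iKO was 2 FOXC1-Sox9CreER-iKO males of postnatal day 60 and of the Black Swiss and C57BL/6 mix. Finally, 1 library from a Shh-Het female in first telogen (day 23, approximate) and 1 from a Shh-Het female in anagen substage II (day 26, approximate), both Agouti, carried no Foxc1 knockout by their labels. The titles of these 2 samples call them WT and their cell descriptions Shh-Het, and the latter is used here. K14Cre acts in all basal keratinocytes from embryonic life, and Sox9CreER acts only in Sox9-expressing cells after tamoxifen. The telogen iKO had no control that shared its stage, age, strain and driver together. The anagen control shared its driver, strain mix and sex but not its stage or age. What differs in each of its comparisons cannot be told apart from the knockout.

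Levels are FPKM, fragments scaled to the length of the gene model and to the number of mapped fragments. The authors' deposited tables give 1 pooled FPKM per group, so the spread between the libraries of a group cannot be shown, and the depth of each library is unknown. A gene was called when the q-value in the authors' deposited table was below 0.05, and every q below comes from those tables, where it rests on 1 or 2 mice a group. The anagen control, anagen iKO, WT second telogen and telogen cKO values chose the genes, so a q-value or call in which any of these groups enters describes the chosen genes and is no independent test. SE is the standard error of a log2 fold, computed as the fold divided by the deposited test statistic. In bulk samples, fewer cells of a type and less RNA per cell cannot be told apart.

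Foxc1 itself checked the labels. It stood at 22.5 FPKM in the anagen control, 27.5 in the WT second telogen group, 42.6 in first telogen and 22.1 in anagen substage II. It fell to 1.32 in the anagen iKO, 1.66 in the telogen cKO and 3.17 in the telogen iKO. Foxc1 RNA was higher in the telogen iKO than in the telogen cKO (log2 0.94 ± 0.35 SE, q = 0.0098). Cd34, Itga6, Sox9 and Lhx2 were among 13 bulge markers checked, and 10 to 13 of these reached 10 FPKM in each group. Krt5 and Krt15 were listed at 0 in 5 and in 3 groups, with the tables' mark for too many fragments to process. The first telogen library stood apart: 7.82% of its gene models were at 0, against 24.7% to 26.7% in the other groups. Its 10 fibroblast markers summed to 2325 FPKM, those of anagen substage II to 1102, and those of the other 5 groups to 93.9 to 203.

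The upstream sequences of a pair of members are shown because both genes had more RNA in WT second telogen than in either anagen control, from promoters of different composition, although in first telogen Cadm3 was lower and Serpina3b higher than in WT second telogen. They are the 250 bases before the start of each gene in RefSeq, build GRCm38.p6, with the start at the right end. Cadm3 lies at chr1:173367696-173367945 on the minus strand and Serpina3b at chr12:104127746-104127995 on the plus strand. The capitals mark a TATAAA motif.
Cadm3: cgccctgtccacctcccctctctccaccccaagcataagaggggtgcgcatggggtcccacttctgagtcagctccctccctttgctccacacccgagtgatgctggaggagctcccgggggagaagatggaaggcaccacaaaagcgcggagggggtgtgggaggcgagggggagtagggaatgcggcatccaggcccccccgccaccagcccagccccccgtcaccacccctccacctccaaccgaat
Serpina3b: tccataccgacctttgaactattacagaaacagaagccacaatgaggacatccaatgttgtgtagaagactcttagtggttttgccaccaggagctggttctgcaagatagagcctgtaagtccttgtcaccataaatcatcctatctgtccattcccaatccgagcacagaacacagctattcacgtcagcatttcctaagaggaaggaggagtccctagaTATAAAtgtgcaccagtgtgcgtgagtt
The TATAAA of Serpina3b begins 28 bases before the start, and the motif occurs on either strand in 13.6% of the 32851 RefSeq promoters of 300 bases (250 before to 50 after the start). In that window Serpina3b had 44.3% G and C and 5 CpG dinucleotides. Cadm3 had 66.7% and 17, Nell1 72.3% and 28, and Spock1 64.0% and 29. The median over all promoters was 52.7% and 7 CpG. Forkhead-type letters were searched on both strands as well. GTAAACA occurs in 3.65% of all promoters. The variant with another first letter, ATAAACA, occurs in 4.60%. The variant GTAAATA occurs in 3.04%, and 10.6% hold at least 1 of the 3. None was found in the windows of the 4 members that matched an entry, which says only that these letters are not in these 300 bases.

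**Figure D1:**
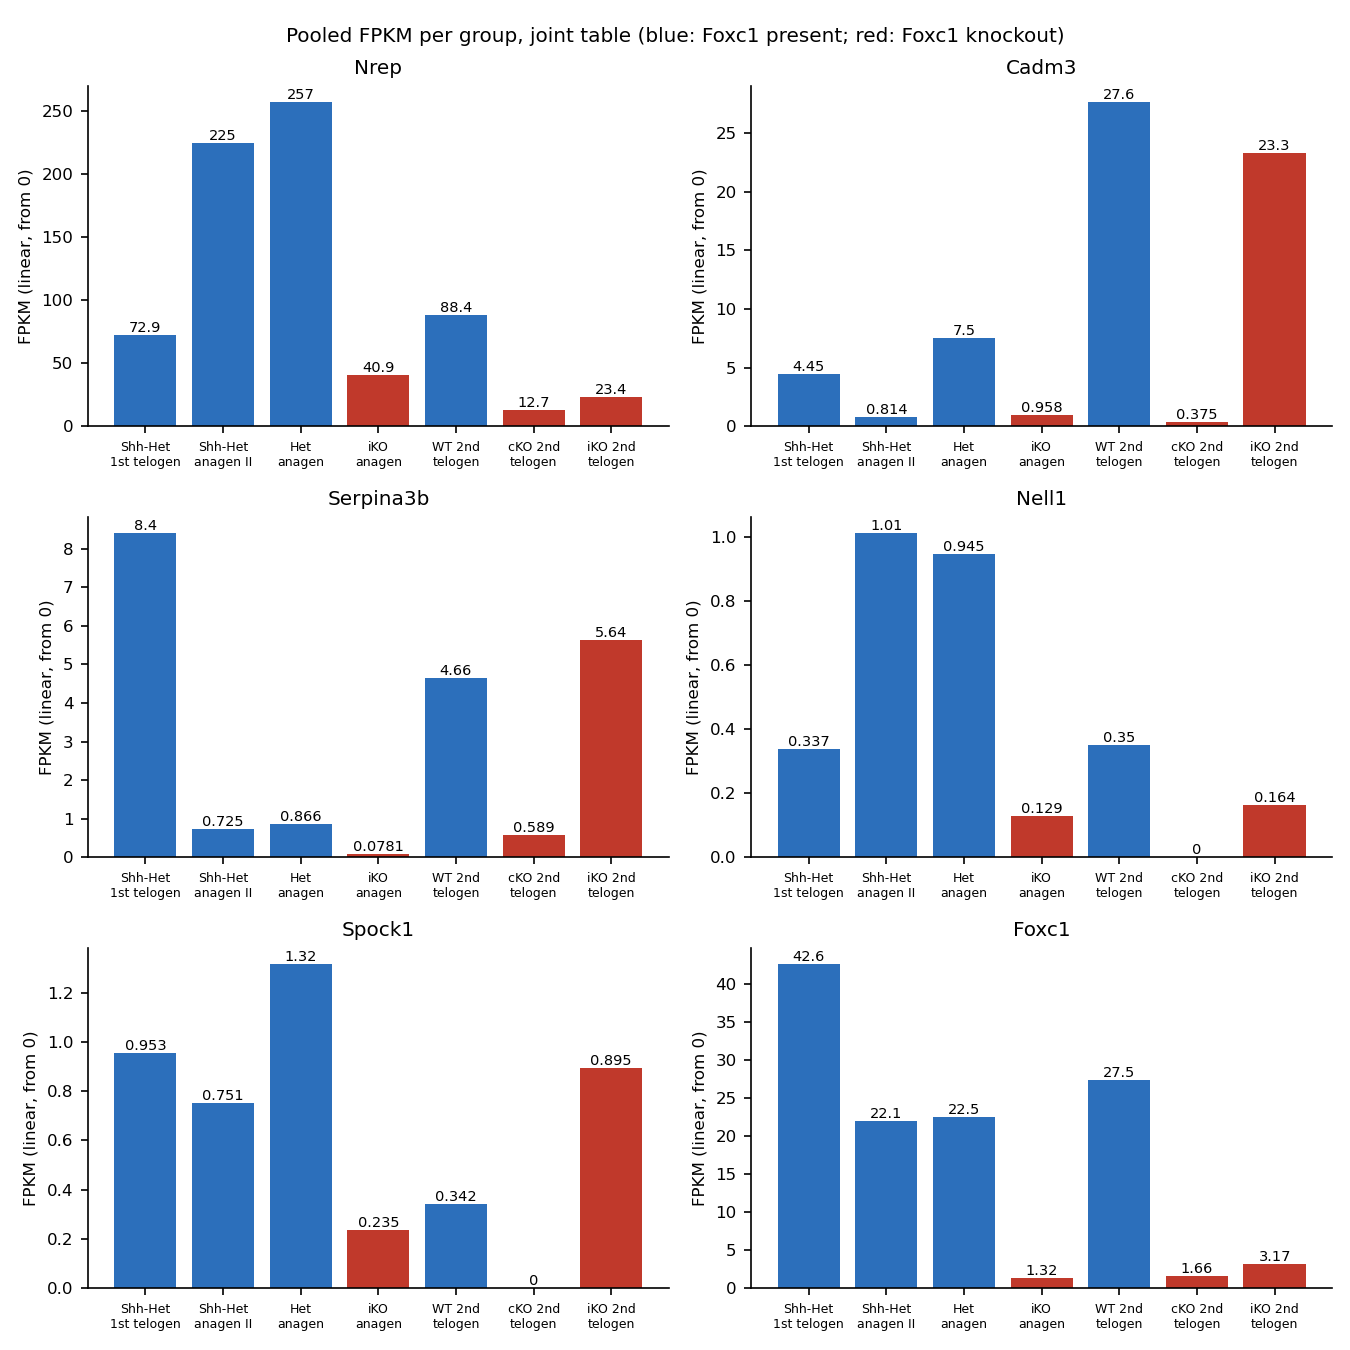
Pooled FPKM (linear axes from 0) of the 5 genes and of Foxc1 in the 7 groups of the joint table, 1 bar per group with its value above it, and no error bar because the table gives 1 value per group. Cadm3, Serpina3b and Spock1 are high again in the telogen iKO (23.3, 5.64 and 0.895 FPKM) while Nrep and Foxc1 stay low there (23.4 and 3.17).

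Nrep was the most abundant of the 5. The gene lies on chromosome 18 at 33596673 to 33623683 (mm9). In the joint table its level was 257 FPKM in the anagen control, 225 in anagen substage II, 88.4 in WT second telogen, 72.9 in first telogen, 40.9 in the anagen iKO, 23.4 in the telogen iKO and 12.7 in the telogen cKO. Every group with Foxc1 was therefore above every knockout group, which also holds for Nell1 and Foxc1 itself and not for Cadm3, Serpina3b or Spock1. In that order, neighbouring groups differed except the 2 anagen controls (q = 0.652) and the 2 telogen controls (q = 0.437). The closest control and knockout groups, first telogen and the anagen iKO, differed by 1.78-fold (q = 0.00546).

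In the tables that hold only the chosen pairs, Nrep went from 273 to 43.4 FPKM in anagen, 15.9% of its control. In second telogen it went from 85.1 to 12.2 FPKM, 14.4% of its control. Cadm3, on chromosome 1 at 175264385 to 175297826, went from 7.94 to 1.02 FPKM in anagen and from 26.6 to 0.360 in telogen. Its fold was 7.82 in anagen (log2 -2.97 ± 0.36 SE) and 73.8 in telogen (log2 -6.21 ± 0.53 SE). Serpina3b, on chromosome 12 at 105366206 to 105377755, went from 0.917 to 0.0828 FPKM in anagen and from 4.48 to 0.564 in telogen. Nell1, on chromosome 7 at 57230720 to 58118659, went from 1.00 to 0.137 FPKM in anagen and from 0.338 FPKM in the telogen control to a listed 0. Spock1, on chromosome 13 at 57522556 to 58009693, went from 1.39 to 0.249 FPKM in anagen and from 0.330 in telogen to a listed 0. No fold is given against the listed zeros, and the telogen control levels of Nell1 and Spock1 were themselves low. All 5 were called lower in each pair, where 5.08% of the genes tested in anagen and 2.87% of those tested in telogen were called lower, as the choice requires.

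The choice named no threshold. The 167 genes called lower in both pairs were ranked by the smaller of their falls on the log2 scale. Serpina3b, Cadm3, Nell1, Nrep and Spock1 stood at places 4, 5, 6, 8 and 11. Nell1 and Spock1 have no telogen fold, since the cKO was listed at 0, and were placed by their anagen falls alone. With 0.1 FPKM added to both groups their telogen log2 folds were -2.13 and -2.10, so these places rest on the treatment of the listed 0. Spock1, the lowest placed member, had an anagen fall of 2.48. Igfbp5, Ednra and Nptx1 came next, with 2.24, 2.22 and 2.15, and were not members. Fzd9, Foxc1, Atp2a3, Gdf10, Camk4 and Igfbp3 stood among the members and were not picked.

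**Figure D2:**
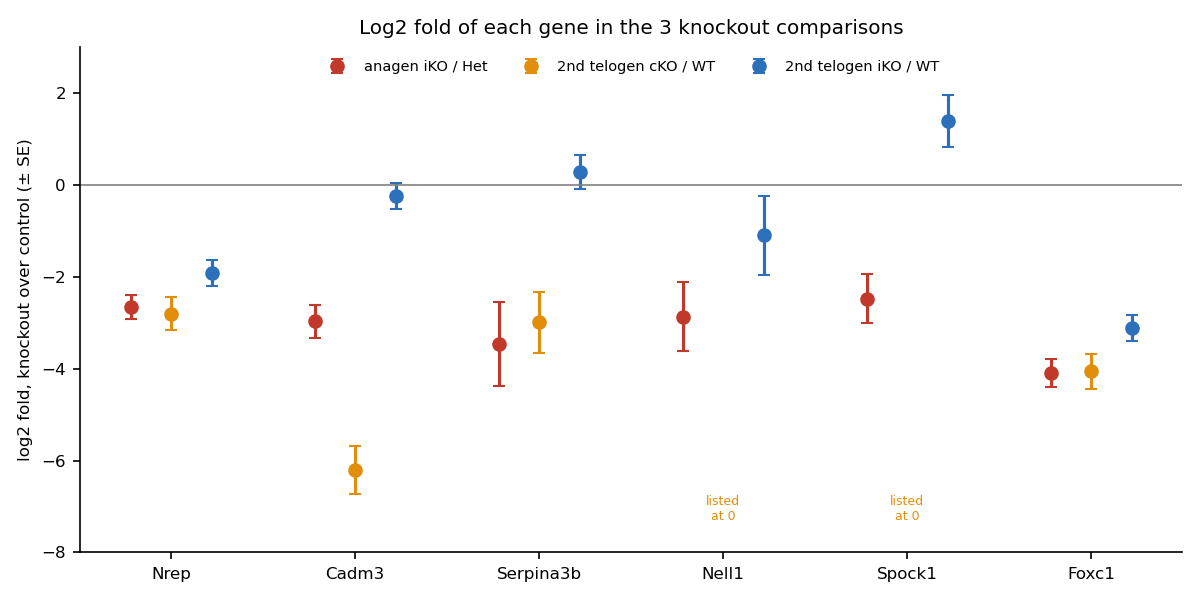
Log2 fold of knockout over control (vertical axis, points with SE bars) for the 5 genes and Foxc1 in anagen iKO over Het, second telogen cKO over WT and second telogen iKO over WT, where "listed at 0" marks a cKO value of 0 with no fold. In the telogen iKO, Nrep remains at -1.92 whereas Cadm3 (-0.24) and Serpina3b (0.28) lie near 0 and Spock1 (1.39) lies above it.

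The telogen iKO was not used to choose the genes, although the WT second telogen group set beside it was. Of the 5 genes, 1 was called lower and 1 higher in the telogen iKO than in WT second telogen, where 5.88% of all tested genes were called lower and 7.01% higher. Nrep was the one lower, at 23.4 against 88.4 FPKM, 26.5% of WT (log2 -1.92 ± 0.28 SE, q = 0.00044). Spock1 was the one higher, at 0.895 against 0.342 FPKM (2.62-fold, log2 1.39 ± 0.56 SE, q = 0.0065). Foxc1 was lower in the same libraries, at 11.5% of WT (q = 0.00044). The genes therefore were not all low where Foxc1 was low.

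The other 3 genes were not called in that comparison, and their intervals limit how far they can have moved. Cadm3 stood at 23.3 FPKM in the telogen iKO and 27.6 in WT (log2 -0.24, 95% interval -0.81 to 0.32, q = 0.445). In the telogen cKO it had stood at 0.360 beside 26.6 FPKM. Serpina3b stood at 5.64 and 4.66 FPKM (log2 0.28, 95% interval -0.44 to 0.99, q = 0.485). Nell1 stood at 0.164 and 0.350 FPKM (log2 -1.10, 95% interval -2.78 to 0.59, q = 0.192). The interval of Nell1 is wide and holds both no difference and a fall of several fold.

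The telogen iKO and the telogen cKO are set side by side as a description, because low values in the cKO were among those that chose the genes. Cadm3 stood at 23.3 FPKM in the telogen iKO and 0.375 in the cKO (62.1-fold, log2 5.96 ± 0.46 SE). Serpina3b stood at 5.64 and 0.589 FPKM (9.58-fold) and Nrep at 23.4 and 12.7 (1.84-fold), so Cadm3 had the largest fold of the 3 genes with one. Spock1 was at 0.895 FPKM where the cKO was listed at 0, and Nell1, at 0.164 FPKM where the cKO was listed at 0, was not tested. The authors' deposited table called the 4 tested genes higher, beside 7.53% of all tested genes, and nothing is read from that count. Both groups are second telogen by their labels, but driver, strain and age differ between them and the cKO includes a female, so these cannot be told apart. The residual Foxc1 level moved the same way, 3.17 against 1.66 FPKM, and its part in the result was not tested. The 9 Schwann and nerve markers, a source considered because Cadm3 and Nell1 are known from the nervous system, summed to 9.18 FPKM in the telogen iKO, 8.79 in the cKO and 9.80 in WT. Gap43 was at 0 in both knockout groups, and none of the 9 reached 10 FPKM in these 3 groups. The 7 immune markers summed to 98.6, 79.8 and 74.6 FPKM and the 5 measured epidermal markers to 3494, 4901 and 3179 in the same order, and their part was not tested.

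The telogen iKO and the anagen iKO share driver, strain mix and sex but differ in stage, in age (day 60 and day 30) and in residual Foxc1 (3.17 and 1.32 FPKM), which cannot be told apart. The telogen iKO was above the anagen iKO for Cadm3 (23.3 against 0.958 FPKM), Serpina3b (5.64 against 0.0781) and Spock1 (0.895 against 0.235). It was below the anagen iKO for Nrep (23.4 against 40.9). Among all genes tested in that comparison, 17.6% were called higher and 15.5% lower. The telogen cKO was below the anagen iKO for Nrep (12.7 against 40.9 FPKM) and Cadm3 (0.375 against 0.958) and above it for Serpina3b (0.589 against 0.0781). There, 13.1% of the genes tested were called lower and 15.2% higher, and driver, strain, age and sex differ as well as stage. Nell1 and Spock1, at a listed 0 in the cKO, were not tested against the anagen iKO. Across the 3 pairs of knockout groups, 11 calls were made.

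The Shh-Het libraries were used neither to choose the genes nor as their controls. Against first telogen, the telogen iKO was lower for Nrep (23.4 against 72.9 FPKM, log2 -1.64 ± 0.29 SE, q = 0.00044). It was higher for Cadm3 (23.3 against 4.45 FPKM, log2 2.39 ± 0.32 SE, q = 0.00044). Serpina3b (5.64 against 8.4), Nell1 (0.164 against 0.337) and Spock1 (0.895 against 0.953) were not called. Among all genes tested, 18.4% were called lower and 5.5% higher, and the fibroblast and immune markers of the first telogen library were far above those of the telogen iKO (2325 against 93.9 FPKM and 262 against 98.6). The part of these other cells in the differences was not tested. Against anagen substage II, the telogen iKO was lower for Nrep (23.4 against 225 FPKM) and Nell1 (0.164 against 1.01, q = 0.0178). It was higher for Cadm3 (23.3 against 0.814 FPKM) and Serpina3b (5.64 against 0.725), and Spock1 was not called (q = 0.723). The background there was 15.3% lower and 17% higher. Beside the anagen control, the telogen iKO had less Nrep (23.4 against 257 FPKM) and Nell1 (0.164 against 0.945). It had more Cadm3 (23.3 against 7.5 FPKM) and Serpina3b (5.64 against 0.866). Spock1 was not called there (0.895 against 1.32 FPKM, q = 0.213). That control shares driver, strain mix and sex with the telogen iKO, and stage and age differ. Nrep was thus lower in the telogen iKO than in each control group it was set against, the ones used for the choice included.

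In cells with Foxc1, the 5 genes split in direction between the anagen control and WT second telogen. The anagen control had more RNA than WT second telogen for Nrep (257 against 88.4 FPKM, log2 1.54 ± 0.29 SE), Nell1 (0.945 against 0.350, log2 1.43 ± 0.68 SE) and Spock1 (1.32 against 0.342, log2 1.94 ± 0.53 SE). It had less for Cadm3 (7.5 against 27.6 FPKM, log2 -1.88 ± 0.27 SE) and Serpina3b (0.866 against 4.66, log2 -2.43 ± 0.48 SE). All 5 were called in the authors' deposited table, where 11.9% of the genes tested were called higher and 13.5% lower. Both groups were among those whose values chose the genes, so this is a description. Foxc1 was not called between these groups (22.5 against 27.5 FPKM, q = 0.327). Strain, age, sex and the Foxc1 heterozygous genotype go with stage here and cannot be told apart from it.

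The Shh-Het pair showed the same split for 4 of the 5 genes, as values without a test, since each stage is 1 library. From first telogen to anagen substage II, Nrep went from 72.9 to 225 FPKM (3.09-fold) and Nell1 from 0.337 to 1.01 (3.0-fold). Cadm3 went from 4.45 to 0.814 FPKM (5.46-fold lower) and Serpina3b from 8.4 to 0.725 (11.6-fold lower). Spock1 stood at 0.953 and 0.751 FPKM. Of all genes in this pair, 8.65% were at least 2-fold higher and 33.3% at least 2-fold lower in anagen substage II. The first telogen library also had far fewer gene models at 0, as given above.

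Cadm3 also differed between control groups of the same broad stage. Between anagen substage II and the anagen control, 1 of the 5 was called, Cadm3, at 0.814 against 7.5 FPKM (9.21-fold lower, q = 0.00044), with a background of 9.78% lower. Between first and second telogen, Cadm3 was lower in first telogen (4.45 against 27.6 FPKM, q = 0.00044), Serpina3b higher (8.4 against 4.66, q = 0.029) and Spock1 higher (0.953 against 0.342, q = 0.0211), with a background of 5.55% lower and 19.4% higher. Across stages, anagen substage II was lower than WT second telogen for Cadm3 and Serpina3b and higher for Nrep (background 17% and 15.2%). The anagen control was lower than first telogen for Serpina3b and higher for Nrep and Cadm3 (background 21.7% and 6.77%). Over these 5 tested pairs of controls, 15 calls were made.

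For some of the genes a control group stood near a knockout group. Cadm3 at 0.814 FPKM in anagen substage II was not distinguished from the anagen iKO at 0.958 (q = 0.747) or the telogen cKO at 0.375 (q = 0.0938). Serpina3b at 0.725 FPKM in the same library was not distinguished from the telogen cKO at 0.589 (q = 0.753) but was above the anagen iKO at 0.0781 (9.27-fold, q = 0.043). Foxc1 stood at 22.1 FPKM in that library. Spock1 at 0.342 FPKM in WT second telogen was not distinguished from the anagen iKO at 0.235 (q = 0.413).

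Over the 7 groups, on the log2(FPKM + 1) scale, Nrep and Nell1 ran together (Pearson r = 0.96) and Cadm3 and Serpina3b did so less closely (r = 0.72). Nrep showed almost no relation with Cadm3 (r = 0.11) or Serpina3b (r = -0.06). With Foxc1, r was 0.77 for Nrep, 0.70 for Nell1, 0.61 for Spock1, 0.49 for Serpina3b and 0.34 for Cadm3. These are descriptions over 7 pooled values that share stage, strain and genotype, and 4 of the 7 groups were used to pick the genes. Likeness was ranked among 10989 genes of at least 5 FPKM in their highest group, except that members were kept at any level. Those most like Nrep were Msx1os (r = 0.97), Gtpbp1 (0.96) and Nell1 (0.96). Nell1 reached only 1.01 FPKM in its highest group and was ranked only because it is a member. The most like Cadm3 were Gmeb2 (0.98), Gpatch8 and Rnf152 (0.96 each), and the most like Serpina3b were Camta1, Adnp2 and Usp2 (0.98 each). The most like Nell1 were Znf512b (0.99), Msx1os (0.98) and Zfp523 (0.97), and the most like Spock1 were Zmynd8 (0.96), Leng8 (0.94) and Entpd4 (0.91). Genes at r over 0.95 numbered 34 for Serpina3b and 1 for Spock1. Correlation takes no account of the size of a change, and several of the named genes varied little. Gmeb2 ranged from 6.68 to 9.56 FPKM and Gtpbp1 from 15.9 to 19.8, where Cadm3 ranged from 0.375 to 27.6. Usp2 ranged more widely, from 2.19 to 13.0 FPKM.

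**Figure D3:**
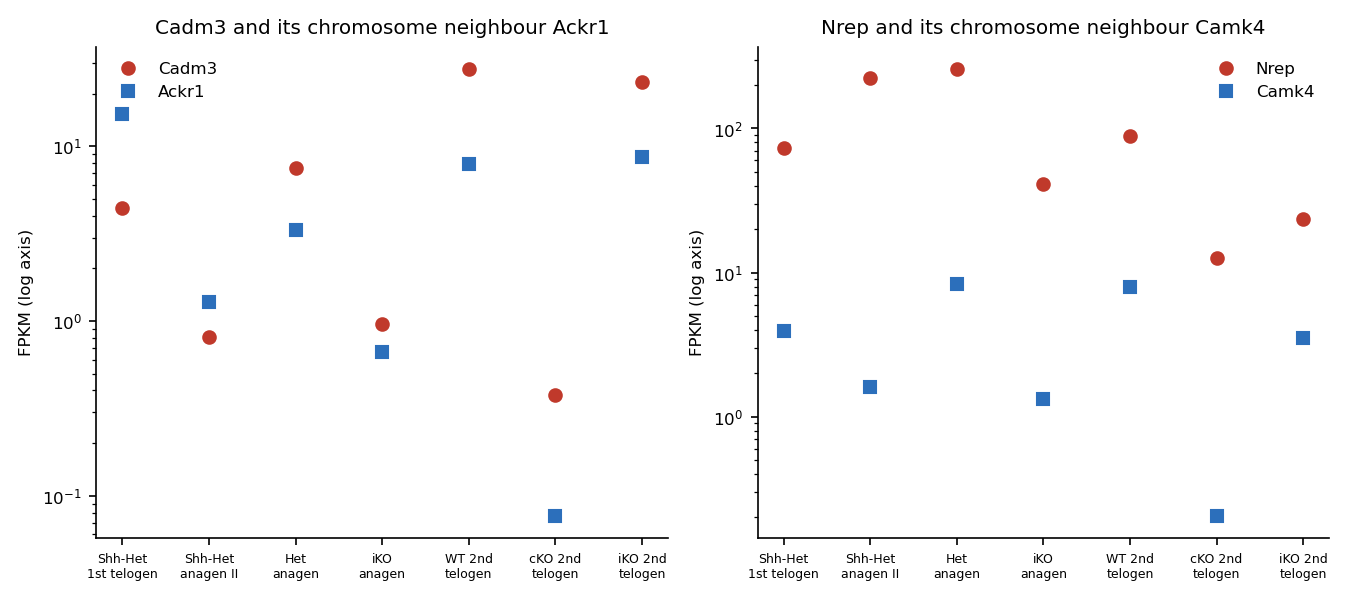
FPKM (log axes) of Cadm3 and Ackr1 and of Nrep and Camk4 in the 7 groups of the joint table, 1 point per group and gene. Ackr1 is low in the anagen iKO (0.662 FPKM) and the telogen cKO (0.0764) and back at 8.65 in the telogen iKO, as Cadm3 is. Camk4 is lower in each knockout group than in the control set beside it, and is also low in anagen substage II (1.61).

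The 3 nearest gene models on either side of each member, and those overlapping it, made 32 neighbours. Of these, 15 were tested in each chosen pair and 17 in the telogen iKO against WT. In anagen, 2 were called lower and 2 higher, beside 5.08% and 5.18% of all tested genes. In the telogen cKO 1 was called lower and none higher, beside 2.87% and 3.75%. In the telogen iKO 2 were called in each direction, beside 5.88% lower and 7.01% higher. Most measured neighbours, such as Stard4, Prmt3, Htatip2, Smad5 and Hnrnpa0, were called in none of the 3.

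Ackr1, an atypical chemokine receptor gene whose model ends 0.75 kb from that of Cadm3, had a like pattern. It stood at 15.3 FPKM in first telogen, 1.28 in anagen substage II, 3.33 in the anagen control, 0.662 in the anagen iKO, 7.97 in WT second telogen, 0.0764 in the telogen cKO and 8.65 in the telogen iKO. It was called lower in the anagen iKO (3.53 to 0.701 FPKM, log2 -2.33 ± 0.49 SE, q = 0.0011). In the telogen cKO it went from 7.67 to 0.0731 FPKM, but the deposited q was 0.434. It was not called in the telogen iKO (q = 0.821). No source used here says whether the counting used strand, so reads that run between such close models cannot be told apart.

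Camk4, a calcium and calmodulin-dependent kinase gene 241 kb from Nrep, was called lower in all 3 comparisons. It went from 8.77 to 1.41 FPKM in anagen (q = 0.0011), from 7.70 to 0.196 in the telogen cKO (q = 0.0016) and from 8.0 to 3.51 in the telogen iKO (q = 0.00044). Camk4 was also low in a group with Foxc1, at 1.61 FPKM in anagen substage II, and stood at 3.94 in first telogen. In the joint table the anagen iKO was at 1.34. Stard4, which lies between Camk4 and Nrep, stood at 10.2 and 8.19, 4.90 and 4.32, and 5.09 and 4.64 FPKM and was not called. Klhl3, 96.6 kb from Spock1, was called lower only in the telogen iKO among the 3 comparisons (1.67 to 0.721 FPKM, q = 0.0153), where Spock1 was higher. Nell1os, which overlaps Nell1, was at 0 in both groups of each of these comparisons. Camk4 and Ackr1 were singled out after their values were seen.

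**Figure D4:**
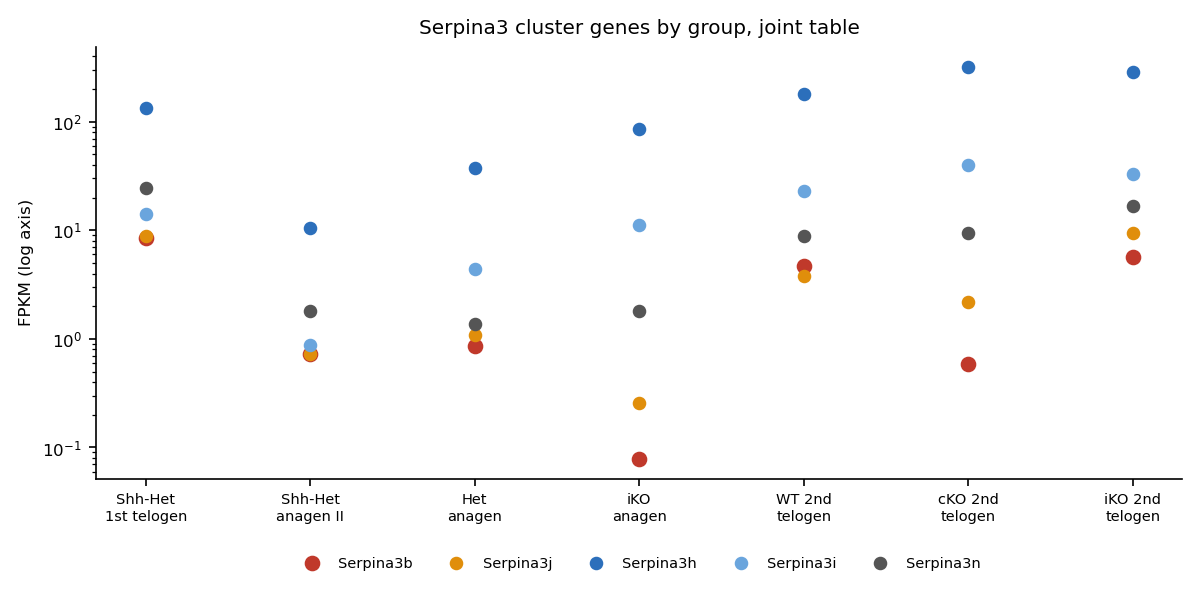
FPKM (log axis) of Serpina3b and 4 other genes of its cluster in the 7 groups of the joint table, 1 point per group and gene. In the anagen iKO, Serpina3b (0.0781) and Serpina3j (0.258) are at their lowest while Serpina3h (86.4) and Serpina3i (11.2) are above the anagen control.

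Serpina3b belongs to a cluster of near-identical protease inhibitor genes, and no source used here says how reads were shared among such copies, so their values are uncertain. Of 20 other Serpina genes, 7 were tested in anagen, where 1 was called lower and 3 higher, and 6 in the telogen cKO, where 1 was called higher (background 5.08% lower and 5.18% higher in anagen, 3.75% higher in the cKO). Serpina3j fell in the anagen iKO (1.16 to 0.273 FPKM, log2 -2.09 ± 0.65 SE, q = 0.0051). Serpina3h rose there from 39.6 to 91.6 FPKM and Serpina3i from 4.68 to 11.8, both at q = 0.0011. In the telogen cKO, Serpina3i rose (22.0 to 38.5 FPKM, q = 0.0179), and Serpina3h (173 to 309, q = 0.0549) and Serpina3j (3.64 to 2.08, q = 0.289) were not called. In the telogen iKO, Serpina3h, Serpina3i, Serpina3j and Serpina3n rose against WT and Serpina9 and Serpina12 fell, of 8 tested, beside 7.01% and 5.88% of all tested genes. Serpina3j rose from 3.78 to 9.38 FPKM (q = 0.00044). The anagen control was below WT second telogen for Serpina3h, Serpina3i, Serpina3j, Serpina3n and Serpina12, the direction also seen for Serpina3b. Serpina3b thus shared its difference between these 2 control groups with Serpina3h and Serpina3i, which rose in the anagen iKO where Serpina3b was lower. It also shared it with Serpina3j, which fell there too. Serpina3n and Serpina12 were not called in the anagen iKO (q = 0.584 and 0.908). Among 9 other serpin genes, Serpine2, a secreted inhibitor of thrombin and plasminogen activators, was called higher in each of the 3 knockout comparisons (10.8 to 18.4, 1.68 to 4.12 and 1.74 to 4.05 FPKM).

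Of the 9 relatives of Cadm3 among the nectins and nectin-like molecules, 7 were tested. In the anagen iKO 2 were called lower, beside 5.08% of all tested genes, Cadm1 (63.8 to 37.1 FPKM, q = 0.0011) and Cadm4 (1.49 to 0.592, q = 0.0219), with a median log2 fold of -0.14 beside -0.03 over all tested genes. In the telogen cKO none was called by the deposited Cuffdiff test, and 2 had an unadjusted p under 0.05. Cadm1 stood at 71.2 and 49.6 FPKM there (q = 0.32). In the telogen iKO, where Cadm3 was not called, 1 of the 7 tested was called lower, beside 5.88% of all tested genes. It was Cadm1, which fell from 74.0 to 44.8 FPKM (q = 0.0049). Cadm4 stood at 1.53 and 0.740 FPKM there (q = 0.0583). Among 14 other adhesion genes, 11 were tested in the anagen iKO, where L1cam and Nrcam fell and Alcam, Chl1 and Epcam rose, beside 5.08% and 5.18% of all tested genes. Alcam, Chl1 and Mcam rose among 11 tested in the telogen cKO (3.75% of all tested genes), and Chl1 and Mcam among 10 tested in the telogen iKO (7.01%). Mcam went from 1.67 to 8.55 FPKM in the telogen cKO and from 1.74 to 12.6 in the telogen iKO.

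The relatives of Spock1 among the SPARC and testican genes numbered 7. In the anagen iKO, 2 of the 6 tested were called lower, beside 5.08% of all tested genes, Smoc1 (9.81 to 1.74 FPKM, q = 0.0011), a matrix calcium-binding protein gene, and Fstl1 (69.5 to 46.6, q = 0.0214). Of 5 tested in the telogen cKO, 1 was called lower, beside 2.87% of all tested genes. Of 5 tested in the telogen iKO, 1 was called lower and 1 higher, beside 5.88% and 7.01%. Spock2, another testican gene, fell in the telogen cKO (3.57 to 1.86 FPKM, q = 0.0408) and rose in the telogen iKO (3.72 to 8.46, q = 0.00044). Spock1 also stood lower in the first of these and higher in the second. In the anagen iKO Spock2 stood at 1.92 against 1.42 FPKM and was not called (q = 0.408), where Spock1 was lower. Smoc1 fell in the telogen iKO (7.40 to 2.82 FPKM, q = 0.00044) and stood at 7.14 and 6.67 in the telogen cKO (q = 0.974). Spock3 was at 0 in all 3 knockout groups and in WT second telogen.

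For Nell1, whose relatives are secreted proteins with von Willebrand factor C domains, 3 of the other 9 genes were tested in each chosen pair and 2 in the telogen iKO, and none was called by the deposited Cuffdiff test. An unadjusted p under 0.05 was given for 1 in anagen, 2 in the telogen cKO and 0 in the telogen iKO. Crim1, a membrane-anchored member, stood at 50.7 and 51.7 FPKM in anagen (q = 0.972) and at 65.9 and 44.2 in the telogen pair (q = 0.281). Nell2 was under 0.03 FPKM in every group of the 3 comparisons and was not tested. For Nrep, all 6 listed TGF-beta genes and partners were tested and none was called by the deposited Cuffdiff test in either chosen pair, where 2 had an unadjusted p under 0.05 in each. In the telogen iKO, 1 of them was called, Tgfb3, which rose from 4.22 to 9.55 FPKM (q = 0.00044), beside 7.01% of all tested genes called higher. Tgfb2 stood at 4.48 and 4.22 FPKM there and Tgfbr1 at 13.3 and 14.8, with q of 0.834 and 0.639.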

How the data were processed

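mRNA from sorted mouse hair follicle stem cells was sequenced in 12 libraries. The authors used TopHat, Cufflinks and Cuffdiff with mm9, per the submitters' processing notes, and no version, setting or use of strand is given in the sources at hand. The deposited FPKM are 1 pooled value per group. The deposited log2 folds have no pseudocount, the deposited test score is the Cuffdiff statistic, and the authors' p-values reach no lower than 5e-05. The deposited q-values of the joint table cover its 21 comparisons together. The 2-group tables and the joint table were scaled separately, and joint levels lay -0.08 (anagen) and 0.06 (telogen) from them in log2. Folds and tests stay within a table.

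From these, SE (log2 fold over statistic), 95% intervals (normal approximation), call counts, promoter motifs and correlations were computed with Python 3.11.15, numpy 2.4.6 and pandas 2.3.3. The adjustment of p within a comparison and the likeness ranking were tested on simulated data, and the SE and count steps were not. The members and gene lists were chosen with earlier results of these data known. Named were the 5 members, Foxc1, up to 4 genes per list by lowest p, nearest paralogues, 3 neighbours per side, the 3 most alike genes and genes ranked among the members. Locus starts were converted to 1-based. Alternatives were a q threshold of 0.01, adjustment within a comparison, pseudocounts of 1 and 0.1, the joint table, Spearman correlation and filters on FPKM.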

Additional observations from a re-analysis of the deposited data

Results flagged for a closer look

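Between the 2 Foxc1 knockouts of second telogen, the 4 genes that were tested differed in the authors' deposited table, where 7.53% of all tested genes were called higher in the telogen iKO, and Nell1 was not tested. The genes were chosen partly by their low values in the telogen cKO, so the differences are a description and no independent test. On the log2 scale the telogen iKO exceeded the telogen cKO by 0.88 for Nrep, 5.96 for Cadm3 and 3.26 for Serpina3b. Spock1 stood at 0.895 FPKM in the telogen iKO where the telogen cKO was listed at 0. Driver, strain, age and sex differ between these groups and cannot be told apart from one another.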

How the results depend on the processing

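No paired analysis was possible because the tables give 1 pooled value per group and no value per library, and leaving out each replicate was not run for the same reason. At a q threshold of 0.01, 1 member was lower in the telogen iKO than in anagen substage II, where 2 had been at 0.05 (Nell1, at q = 0.0178, was lost). At that threshold 2 of the listed relatives were called in the telogen cKO, where 6 had been at 0.05. Of all tested genes, 2.87% were called lower and 3.75% higher there at 0.05. With a pseudocount of 1, the anagen log2 folds of Cadm3, Serpina3b, Nell1 and Spock1 became -2.15, -0.82, -0.82 and -0.94, and the telogen folds of Cadm3 and Serpina3b -4.34 and -1.81. With a pseudocount of 0.1, the anagen fold of Serpina3b became -2.48, and Nell1 and Spock1, listed at 0 in the telogen cKO, had -2.13 and -2.10. A pseudocount shrinks folds of low values by construction. Of the 3 genes most like Cadm3, 1 was shared with a pseudocount of 0.1, with Spearman correlation and with no minimum FPKM. For Serpina3b 1, 0 and 1 were shared under those settings. For Nell1 1 was shared with a pseudocount of 0.1, and for Spock1 1 with Spearman correlation. The likeness lists thus depend on these settings. Calls between pairs of control groups went from 15 to 11 at 0.01 and to 16 with adjustment within a comparison, and calls between pairs of knockout groups from 11 to 10 and 11. Calls among the listed relatives went from 14 to 10 in the anagen iKO and from 15 to 11 in the telogen iKO at 0.01. At 0.05, 5.08% of all genes tested in the anagen iKO were called lower and 5.18% higher. In the telogen iKO these shares were 5.88% and 7.01%. The shares at 0.01 are not given here, so nothing is read from the counts of relatives. No value changed direction under the alternatives run. Depth per library is unknown, so levels under 1 FPKM have no counting interval.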
